A study of Homo sapiens with 12 samples.

Results

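The mitochondrial ribosomal protein genes, named MRPS and MRPL for the small and the large subunit, were followed in THP-1 cells under 4 conditions. They were chosen by symbol, as every gene whose name is MRPL or MRPS followed by a number and at most a letter A, B or C, with a summed count of at least 120 over the 12 libraries. This gave 77 genes of the 78932 in the deposited table, and all 77 were tested. The member with the lowest summed count was MRPL4 with 299, the next was MRPL38 with 1509, and 0 matching genes fell under the threshold. Of the 77, 28 carry MRPS names and 49 carry MRPL names. MRPS18A and MRPS30 sit in the large subunit despite their names, so 26 members belong to the small subunit and 51 to the large. MRPS36 is listed under its other symbol, KGD4, which the rule does not match.

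THP-1 is a human line of monocyte-like leukaemia cells kept in culture. The 12 libraries form 4 groups of 3. NC is the untreated control, LPS received bacterial lipopolysaccharide (LPS) and ATP to induce pyroptosis, an inflammatory form of cell death, CE received LPS and ATP with cyclosporin A and eltrombopag, and CEL received LPS and ATP with cyclosporin A, eltrombopag and luspatercept. Doses and times, and whether the 3 libraries of a group came from separate cultures, are not stated in the labels. The p-values thus measure only how far these libraries differ, which may be technical. Columns of the tables name the groups differently from the labels, and the CE columns were matched as the remaining group, so every CE value rests on that match.

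Mitochondria hold their own ribosome, which translates the few proteins encoded by mitochondrial DNA, all of them subunits of the respiratory chain and ATP synthase. Its ribosomal RNAs come from the mitochondrial genome, whereas every one of its proteins is encoded in the nucleus, made in the cytosol and imported. Some of these proteins descend from bacterial ribosomal proteins and others were added in the mitochondrial lineage. In monocytes and macrophages, inflammatory stimulation is known to be accompanied by a shift of energy metabolism away from respiration.

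The promoters of the members are shown first because many carry short sequences bound by factors with a known role in genes for mitochondrial proteins. RefSeq promoter sequences on GRCh38.p14, from 250 bases before to 50 bases after the transcription start, were matched by symbol for 69 of the 77 members, and 4 motifs were searched on both strands. A gene was counted where any of its windows held the motif. The ETS-family motif CCGGAAG was found in 30 of the 69 members (43.5%), against 12.2% of all 27305 genes with a promoter sequence. That background includes genes not tested here, whereas all members were tested. The YY1 motif AAGATGGCG was found in 13 (18.8%), against 2.14% of all. The NRF1 motif, GCGCA followed by any base and GCGC, was found in 9 (13%), against 6.98%, and the E-box CACGTG, bound by MYC among others, in 9 (13%), against 8.77%. At least 1 of the ETS, YY1 and NRF1 motifs was present in 45 of the 69 members, a count for which no share over all genes was computed. An ETS match that ends in AAG can overlap the start of a YY1 match, and a match describes the sequence and does not show binding. The 250 bases before the start of 4 members that carry such a motif are printed as examples. Of these, MRPL57 and MRPL51 were among the most reduced members, and MRPL48 and MRPL54 among the most raised. MRPS6, MRPL12, MRPS7 and MRPL24, also among the most changed members, had no ETS, YY1 or NRF1 motif in the searched sequence. Capitals in the printed sequences mark an NRF1 motif in MRPL57 and ETS motifs, on either strand, in MRPL51, MRPL48 and MRPL54. The positions are chr13:21176408-21176657 on the plus strand for MRPL57, chr12:6493263-6493512 on the minus strand for MRPL51, chr11:73787624-73787873 on the plus strand for MRPL48 and chr19:3762432-3762681 on the plus strand for MRPL54.
MRPL57: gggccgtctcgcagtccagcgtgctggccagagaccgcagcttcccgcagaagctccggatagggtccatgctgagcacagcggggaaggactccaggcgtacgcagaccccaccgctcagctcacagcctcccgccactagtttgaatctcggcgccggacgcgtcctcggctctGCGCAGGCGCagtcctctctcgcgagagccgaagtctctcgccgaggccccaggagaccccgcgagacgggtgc
MRPL51: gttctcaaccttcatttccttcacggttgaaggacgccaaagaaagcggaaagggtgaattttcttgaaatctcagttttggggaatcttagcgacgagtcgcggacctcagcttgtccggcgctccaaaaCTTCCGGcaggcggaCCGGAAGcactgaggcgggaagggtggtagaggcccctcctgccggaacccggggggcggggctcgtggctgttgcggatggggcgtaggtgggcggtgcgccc
MRPL48: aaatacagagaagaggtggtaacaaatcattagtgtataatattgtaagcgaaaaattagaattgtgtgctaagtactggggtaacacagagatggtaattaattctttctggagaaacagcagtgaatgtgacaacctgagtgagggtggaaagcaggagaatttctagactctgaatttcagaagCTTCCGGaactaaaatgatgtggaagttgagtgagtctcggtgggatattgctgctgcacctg
MRPL54: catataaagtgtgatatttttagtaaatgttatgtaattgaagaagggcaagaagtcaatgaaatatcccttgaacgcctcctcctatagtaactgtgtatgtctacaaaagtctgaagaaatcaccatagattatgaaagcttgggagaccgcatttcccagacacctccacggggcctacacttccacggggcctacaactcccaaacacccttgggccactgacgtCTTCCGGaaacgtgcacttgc
ETS motifs stand before genes that fell, such as MRPL51, and before genes that rose, such as MRPL48 and MRPL54.

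Library totals ran from 17737213 to 23183429 estimated counts. Over all genes, NC 3, LPS 1 and, less far, CE 2 stood apart from the other 2 libraries of their groups. In NC 3 and LPS 1 MT-RNR1, the ribosomal RNA of the mitochondrial small subunit, was at 6593 and 4929 CPM (counts scaled to a common library size), against 635 to 771 CPM in the other NC and LPS libraries. Without CE 2 the median change of all tested genes in CE against LPS was -0.04, against 0.08 with it. Among the members, CE 2 differed most for those rich in G and C, as described further on. The 10 monocytic marker genes summed to 272 to 922 CPM per library, and markers of T cells, B cells, erythroid cells, fibroblasts, epithelium and endothelium summed to at most 1.2 CPM. The monocytic markers differed among themselves. The mean of LYZ was 595, 142, 27.7 and 20.3 CPM in NC, LPS, CE and CEL, while that of CSF1R was 7.26, 46.5, 67.4 and 44.4 CPM. Group means of MPO and CEBPA were at most 0.52 and 1.43 CPM, and CD14 and ITGAM were at 0.87 and 1.48 CPM in NC.

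Nearly all members were well expressed. On the length-corrected TPM scale of the authors' table, the median member had a mean of 56.8 TPM over the 12 libraries, against 7.28 TPM for the median tested gene, and 74 of 77 members were at 10 TPM or more. The highest mean levels were 226 TPM for MRPL33, 205 for MRPL13, 191 for MRPL37 and 175 for MRPL15. The lowest were 1.41 TPM for MRPL4, 7.04 for MRPL38, 7.07 for MRPL57 and 12.6 for MRPS12. MRPS12, related to the bacterial protein of the decoding site, was thus among the 4 least abundant members. The members lie on 21 chromosomes, with at most 8 on one.

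Summed over all 77 members, the transcripts were lower in the treated groups than in the control on the CPM scale. The sum was 4482, 4292 and 4415 CPM in NC, 4005, 4029 and 3832 CPM in LPS, 3841, 3383 and 3587 CPM in CE, and 3431, 3647 and 3730 CPM in CEL. Every NC library lay above every LPS library, while LPS overlapped CE by a narrow margin and lay above CEL, and CE and CEL overlapped. The group means were 4397 ± 96.2, 3955 ± 108, 3603 ± 229 and 3603 ± 155 CPM (SD, n = 3 each). Both subunits took part, with the small subunit at 1500, 1346, 1264 and 1257 CPM and the large subunit at 2897, 2609, 2339 and 2345 CPM in NC, LPS, CE and CEL. In bulk libraries, fewer cells that express a gene and less of its RNA per cell cannot be told apart. The TPM sums ordered NC and LPS differently. They were 6030, 5939 and 4237 TPM in NC and 4355, 6026 and 6057 TPM in LPS, the low values being NC 3 and LPS 1, the libraries high in MT-RNR1. In CE they were 4950, 4829 and 4871 TPM, and in CEL 5096, 5173 and 5199 TPM. The part of MT-RNR1 in the TPM sums was not tested.

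**Figure D1:**
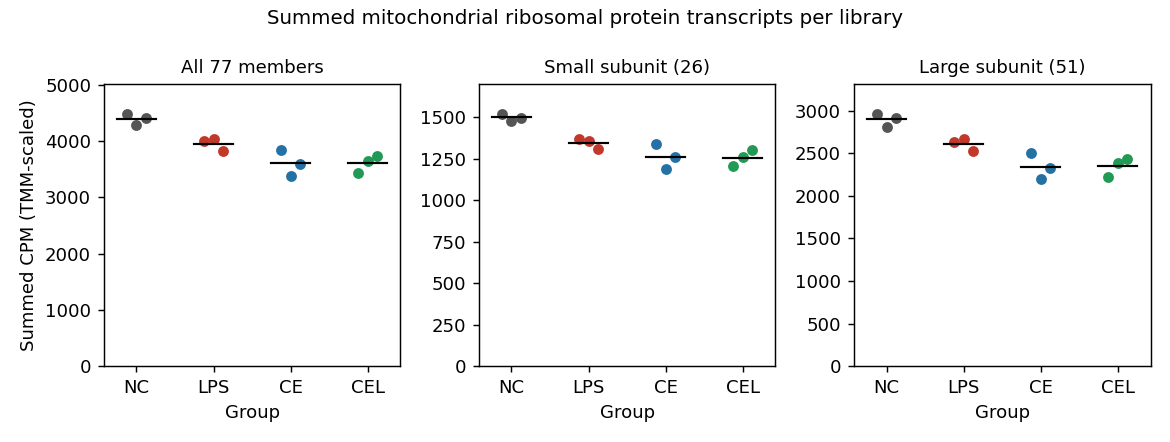
Summed CPM of all 77 members, of the 26 in the small subunit and of the 51 in the large subunit (vertical axes, from 0) in the 3 libraries of each group (points), with the group mean as a line. The NC libraries, 4292 to 4482 CPM in the left panel, lie above all libraries of the other groups.

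The first comparison asked what the pyroptosis stimulus did to these genes. Of the 77 members, 28 fell and 5 rose in LPS against NC at an edgeR quasi-likelihood adjusted p under 0.05 (Benjamini-Hochberg over all tested genes). Among all 14065 tested genes, 23.5% fell and 22.4% rose, so the members' share of falls (36.4%) was above that of all genes and their share of rises (6.49%) below it. The median change was -0.12 on the log2 scale, against -0.01 over all tested genes. Within replicate numbers 1, 2 and 3, which the labels give as batches, the members' median log2 ratio was -0.15, -0.07 and -0.14. In the small subunit 11 of 26 fell and 1 rose, and in the large subunit 17 of 51 fell and 4 rose. Of the 29 members specific to mitochondria 13 fell and 3 rose, and of the 48 with a bacterial counterpart 15 fell and 2 rose.

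MRPS27, a small-subunit protein with helical repeats of a kind found in RNA-binding proteins, was at 128, 130 and 121 CPM in NC and at 79.0, 74.2 and 78.2 CPM in LPS. All NC libraries were above all LPS libraries, and the gene fell 1.64-fold (log2 change -0.71 ± 0.06 SE, edgeR adjusted p = 1.03e-06). Its levels in the drug groups were 76.1 ± 3.55 CPM in CE and 70.9 ± 3.52 CPM in CEL (SD, n = 3). MRPL57, a small mitochondria-specific protein of the large subunit, was at 21.2, 20.9 and 21.5 CPM in NC and at 13.3, 11.5 and 12.9 CPM in LPS, again without overlap. Its log2 change was -0.75 ± 0.14 (edgeR adjusted p = 0.000855), the lowest among the members. MRPS14 and MRPL16, both with bacterial counterparts, fell by 0.59 ± 0.09 and 0.57 ± 0.06 on the log2 scale (edgeR adjusted p = 0.000222 and 2.27e-05). MRPL43 and MRPL11 fell by 0.54 ± 0.13 and 0.50 ± 0.08 (edgeR adjusted p = 0.00415 and 0.000352). MRPL11 belongs to the base of the stalk where translation factors dock.

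Fewer members, 5, rose. MRPL40, a mitochondria-specific protein of the large subunit, was at 25.8, 24.3 and 26.8 CPM in NC and at 36.4, 36.9 and 36.5 CPM in LPS, a 1.43-fold rise without overlap (log2 change 0.51 ± 0.08, edgeR adjusted p = 0.000224). MRPL52 rose by 0.41 ± 0.07 (edgeR adjusted p = 0.000827), from 28.5, 26.6 and 26.8 CPM to 35.6, 37.3 and 36.1 CPM. Its start lies 59 bases from that of SLC7A7, an amino acid transporter gene on the opposite strand, which rose from 6.50 to 61.0 CPM (log2 change 3.23, edgeR adjusted p = 2.14e-11). MRPL52 is 1 of 19 members with such a neighbour, and a link between the changes of MRPL52 and SLC7A7 was not tested. MRPL54, MRPS6 and MRPL14 rose by 0.30 ± 0.08, 0.28 ± 0.06 and 0.23 ± 0.07 (edgeR adjusted p = 0.0087, 0.00208 and 0.0255).

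The falls depended on the scale. With limma on log2(TPM + 1), 1 member fell and 2 rose (1.3% and 2.6%) and the members' median was 0.01. On that scale 6.02% of all 12304 tested genes fell and 15.8% rose, with a median of 0.12, so the members' share of falls was below that of all genes. In edgeR without both NC 3 and LPS 1 there were 17 falls and 1 rise, where 14.9% of all tested genes fell and 14.7% rose. A GC correction moved the median of all 11300 genes with a GC value to -0.20, with 39.3% of them falling and 18.4% rising. With it none of the 5 rises passed. Of these 5, MRPL40, MRPL52 and MRPS6 passed whichever single library was left out, MRPL54 missed the threshold without NC 3 (edgeR adjusted p = 0.0768), and MRPL14 missed it without NC 2 (0.101), NC 3 (0.122), LPS 1 (0.0614) or LPS 2 (0.185). With upper quartile factors the split was 2 higher and 38 lower, where 18.5% of all tested genes rose and 31.2% fell.

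The second comparison set the drug pair against the stimulus alone, CE against LPS. Of the 77 members, 36 fell and 9 rose, where 20.7% of all tested genes fell and 28.8% rose. The members' shares were 46.8% and 11.7%. The split over all genes depended on the scaling: with upper quartile factors 4000 genes fell and 2945 rose, and with library size alone 3833 fell and 3040 rose. The members' median was -0.24 and that of all tested genes 0.08, and within replicate numbers 1, 2 and 3 the members' median was -0.14, -0.28 and -0.18. In the small subunit 14 of 26 fell and 3 rose, and in the large subunit 22 of 51 fell and 6 rose. Members with a bacterial counterpart gave 25 falls and 3 rises of 48, and the mitochondria-specific ones 11 falls and 6 rises of 29; the difference between these classes was not tested.

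MRPS7, a protein of the head of the small subunit, was at 73.4, 71.0 and 70.6 CPM in LPS and at 41.4, 33.5 and 36.5 CPM in CE. The groups did not overlap, and the gene fell 1.93-fold (log2 change -0.95 ± 0.08, edgeR adjusted p = 1.31e-06). MRPL24, the counterpart of a bacterial protein near the exit of the peptide tunnel, was at 63.8, 63.1 and 56.9 CPM in LPS and at 36.0, 31.1 and 31.1 CPM in CE, a 1.87-fold fall (-0.90 ± 0.08, edgeR adjusted p = 3.82e-06). In NC it was at 61.4, 58.6 and 61.3 CPM, overlapping LPS. MRPL51 fell by 0.87 ± 0.11 and MRPS12 by 0.85 ± 0.15 (edgeR adjusted p = 3.49e-05 and 0.000492). MRPL40, which had risen in LPS, fell to 23.3, 19.2 and 22.7 CPM in CE (-0.75 ± 0.08, edgeR adjusted p = 9.66e-06). With a GC correction neither MRPL40 (-0.45, edgeR adjusted p = 0.31) nor MRPS12 (-0.63, 0.109) passed in this comparison. MRPL52, which had also risen in LPS, fell in the main fit to 26.6, 22.1 and 22.8 CPM in CE (-0.61 ± 0.07, edgeR adjusted p = 3.63e-05). Its neighbour SLC7A7 was at 29.2 CPM in CE.

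MRPL48, a mitochondria-specific large-subunit protein, went the other way, from 30.1, 29 and 29.5 CPM in LPS to 48.5, 39.7 and 42.7 CPM in CE. This 1.48-fold rise (0.56 ± 0.08, edgeR adjusted p = 9.57e-05) brought it to the range of NC, 38.8 to 42.9 CPM. MRPL10, which anchors the stalk proteins including MRPL12, rose from 20.3, 20.5 and 21.3 CPM to 35.1, 28.3 and 27.5 CPM (0.55 ± 0.09, edgeR adjusted p = 0.000312). MRPL12, the stalk protein also known to bind the mitochondrial RNA polymerase, moved in the opposite direction. It was at 22.3, 19.2 and 25.9 CPM in LPS and at 6.74, 17.9 and 7.76 CPM in CE, where CE 2 was far above the other 2 libraries (-1.06 ± 0.31, edgeR adjusted p = 0.0152). Without LPS 3 its adjusted p was 0.0608. MRPS6, MRPL49, MRPL42 and MRPS35 rose by 0.38 ± 0.06, 0.37 ± 0.06, 0.36 ± 0.10 and 0.31 ± 0.07 (edgeR adjusted p = 0.000199, 0.000271, 0.0114 and 0.00204). MRPL42 missed the threshold without CE 1 (adjusted p = 0.0811) or CE 3 (0.0729).

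The count of rises in CE against LPS was 5 without CE 1 and 5 without CE 3, where 24.9% and 23.5% of all tested genes rose. Without CE 2 there were 13 rises and 38 falls, where 28.9% of all tested genes rose and 26.6% fell. The members' median was then -0.16 and that of all genes -0.04, a difference of -0.12. With limma on log2(TPM + 1) the split was 2 higher and 13 lower, with upper quartile factors 4 and 50, and with library size alone 4 and 50. In the same order, 17.8%, 20.9% and 21.6% of all tested genes rose and 9.83%, 28.4% and 27.3% fell. MRPS7, MRPL24, MRPL51 and MRPL48 passed under each of the 19 alternatives.

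**Figure D2:**
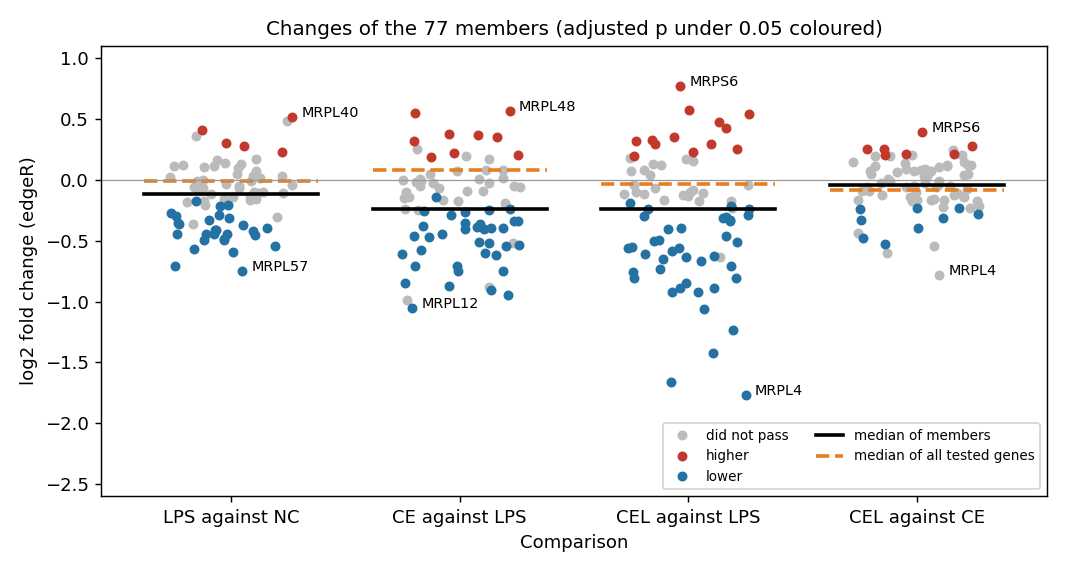
The log2 fold change of each of the 77 members (points, vertical axis) in 4 comparisons, coloured where the edgeR adjusted p was under 0.05, with the median of the members as a solid line and that of all tested genes as a dashed line. In CE against LPS the members' median, -0.24, lies below that of all genes, 0.08, and in CEL against CE the medians are -0.04 and -0.09.

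Adding luspatercept to the drug pair was compared first with the stimulus alone. In CEL against LPS 40 of the 77 members fell and 13 rose, against 27.2% and 28.7% of all tested genes. The members' shares were 51.9% and 16.9%, and their median was -0.24, against -0.03 over all genes, with -0.33, -0.24 and -0.17 within replicate numbers 1, 2 and 3. In the small subunit 16 of 26 fell and 3 rose, and in the large subunit 24 of 51 fell and 10 rose. This comparison shares the LPS libraries with CE against LPS, so the 2 sets of values are not independent.

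MRPL24 was at 23.8, 26 and 28.4 CPM in CEL, below all LPS libraries, a 2.35-fold fall (-1.23 ± 0.08, edgeR adjusted p = 2.32e-07). MRPS16, a small-subunit protein with a bacterial counterpart, was at 19.6, 20.6 and 22.9 CPM in LPS and at 10.2, 10.1 and 9.94 CPM in CEL, a 2.09-fold fall (-1.06 ± 0.09, edgeR adjusted p = 1.3e-06). MRPS33 fell by 0.92 ± 0.11 and MRPL12 by 1.66 ± 0.32 (edgeR adjusted p = 2.96e-05 and 0.000944), the latter to 9.13, 6.21 and 5.91 CPM. MRPL4 and MRPS34 had log2 changes of -1.77 ± 0.60 and -1.42 ± 0.50 (edgeR adjusted p = 0.0262 and 0.0314). MRPL4 missed the threshold without LPS 3 (adjusted p = 0.118), CEL 1 (0.0561), CEL 2 (0.0763) or CEL 3 (0.0734), and MRPS34 without LPS 3 (0.106), CEL 2 (0.112) or CEL 3 (0.11) and with the replicate number as a block (0.0514). Among the rises, MRPS6 led with 0.77 ± 0.06, followed by MRPL49 with 0.57 ± 0.06, MRPL48 with 0.54 ± 0.08, MRPL44 with 0.47 ± 0.07, MRPL10 with 0.43 ± 0.09 and MRPS35 with 0.35 ± 0.07 (edgeR adjusted p from 5.29e-07 for MRPS6 to 0.00156 for MRPL10). MRPL44, which carries a fold related to double-stranded RNA nucleases, was at 55.9, 57.3 and 55.6 CPM in LPS and at 73.1, 75.7 and 85.6 CPM in CEL, near its NC range of 72.7 to 76.6 CPM. With limma on log2(TPM + 1) the split was 8 higher and 18 lower, and with upper quartile factors 7 and 50. Of all tested genes, 24% rose and 14.5% fell with the former, and 23.4% rose and 32.6% fell with the latter. MRPL24, MRPS16, MRPS33, MRPS6, MRPL49 and MRPL48 passed under each of the 19 alternatives.

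Against the drug pair itself, luspatercept was accompanied by few changes among these genes. In CEL against CE 9 of the 77 members fell and 7 rose, where 14.8% of all tested genes fell and 8.78% rose; the members' shares, 11.7% and 9.09%, were near these. The median was -0.04, against -0.09 over all tested genes, and it was -0.17, 0.08 and 0.07 within replicate numbers 1, 2 and 3, so its sign differed between batches. MRPS16 fell 1.44-fold, from 14.4, 16.2 and 13.0 CPM in CE to 10.2, 10.1 and 9.94 CPM in CEL (-0.53 ± 0.09, edgeR adjusted p = 0.00141). MRPS6, related to a bacterial small-subunit protein, rose 1.31-fold, from 66.1, 57.6 and 63.4 CPM to 80.2, 82.1 and 83.3 CPM (0.39 ± 0.06, edgeR adjusted p = 0.000599). Neither pair of groups overlapped. MRPS30, a large-subunit protein despite its name, rose by 0.21 ± 0.05, from 70.1, 74.8 and 68.8 CPM to 85.7, 81.1 and 80.6 CPM (edgeR adjusted p = 0.011). MRPS16, MRPS6, MRPS30 and MRPL49 passed whichever single library was left out.

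The other named calls between CE and CEL did not. MRPS33 (-0.48 ± 0.11), MRPL45 (-0.40 ± 0.08), MRPL24 (-0.33 ± 0.08), MRPL23 (-0.31 ± 0.07) and MRPS31 (-0.28 ± 0.08) had edgeR adjusted p of 0.00992, 0.00456, 0.0138, 0.0064 and 0.0198. MRPL14 (0.28 ± 0.07), MRPL44 (0.25 ± 0.07) and MRPL9 (0.22 ± 0.05) had 0.017, 0.0258 and 0.0145. Without CE 1 the adjusted p was 0.114 for MRPS33, 0.0841 for MRPL45, 0.143 for MRPL24, 0.0655 for MRPL23 and 0.163 for MRPS31. Without CEL 1 it was 0.068 for MRPL14 and 0.0672 for MRPL9, and without CEL 3 it was 0.1 for MRPL44. MRPL49 missed the threshold with the replicate number as a block (adjusted p = 0.06). The count of falls was 1 without CE 1, 2 without CE 3, 1 without CEL 1, 1 without CEL 2 and 14 without CE 2, and the count of rises was 15 without CE 1 and 4 without CEL 2 or without CEL 3. Of all tested genes, 9.28% fell and 11.4% rose without CE 1, and 16.8% fell and 11% rose without CE 2. With limma on log2(TPM + 1), 0 members were called, with 2 at an unadjusted p under 0.05, and DESeq2 called 7 rises and 5 falls. On the limma scale 0.845% of all tested genes rose and 1.27% fell.

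Set against the untreated control, both drug groups were lower for most members. In CE against NC 50 members fell and 9 rose (29.4% and 34.6% of all tested genes), with a median of -0.36 against 0.09 over all genes and of -0.32, -0.38 and -0.40 within replicate numbers 1, 2 and 3. In CEL against NC 50 fell and 11 rose (33% and 34% of all tested genes), with a median of -0.43 against 0.00 over all genes and of -0.44, -0.34 and -0.42 within the numbers. MRPL57 was lowest in CE, at 8.91, 6.16 and 8.00 CPM against 20.9 to 21.5 CPM in NC (-1.46 ± 0.14, edgeR adjusted p = 2.78e-06). MRPL51 and MRPS7 followed with -1.31 ± 0.11 and -1.24 ± 0.08 (edgeR adjusted p = 6.72e-07 and 6.08e-08), and MRPS12 and MRPS9 with -1.21 ± 0.15 and -1.15 ± 0.09 (2e-05 and 4.18e-07). In CEL against NC, MRPS16 fell 2.59-fold (-1.37 ± 0.09, edgeR adjusted p = 8.48e-08). With upper quartile factors the splits were 2 higher and 64 lower for CE and 5 higher and 58 lower for CEL. Of all tested genes, 25.4% and 27.2% were then higher and 40.1% and 41.3% lower. With limma on log2(TPM + 1) the splits were 8 and 19, and 11 and 23, where 32.4% and 36.2% of all tested genes were higher and 14.4% and 17.8% lower.

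A few members changed in the same direction at each step from NC through LPS and CE to CEL, with no overlap between neighbouring groups. MRPS6 was the 1 member that rose throughout, from 38, 39.5 and 40.9 CPM in NC and 48.1, 47.6 and 48.0 CPM in LPS to the CE and CEL values given above. In CEL it stood 2.08-fold above NC (1.05 ± 0.06, edgeR adjusted p = 2.11e-08), the largest rise of a member in any of the 6 comparisons. It shares its strand and part of its locus (chromosome 21, 34073224 to 34143034, GRCh38) with SLC5A3, an inositol transporter gene whose mean level was 59.4, 71.4, 77 and 123 CPM in NC, LPS, CE and CEL. The part of reads shared with SLC5A3 in the rise of MRPS6 was not tested. MRPL23, MRPL45 and MRPS16 stepped down throughout. MRPL45, which tethers the ribosome to the inner membrane, was at 59.4, 56.9 and 59.0 CPM in NC, 44.8, 48.6 and 43.0 in LPS, 40.8, 33.3 and 40.2 in CE and 27.9, 28.7 and 30.2 in CEL. MRPL23, a protein of the tunnel exit, was at 32.8, 31.7 and 35.8 CPM in NC, 25.3, 25.8 and 26.5 in LPS, 20.7, 19.7 and 18.6 in CE and 15.6, 15.4 and 16.5 in CEL. Such a stepwise order without overlap was found upward in 3.33% and downward in 3.36% of all tested genes, so 1 and 3 of 77 members are near that background.

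**Figure D3:**
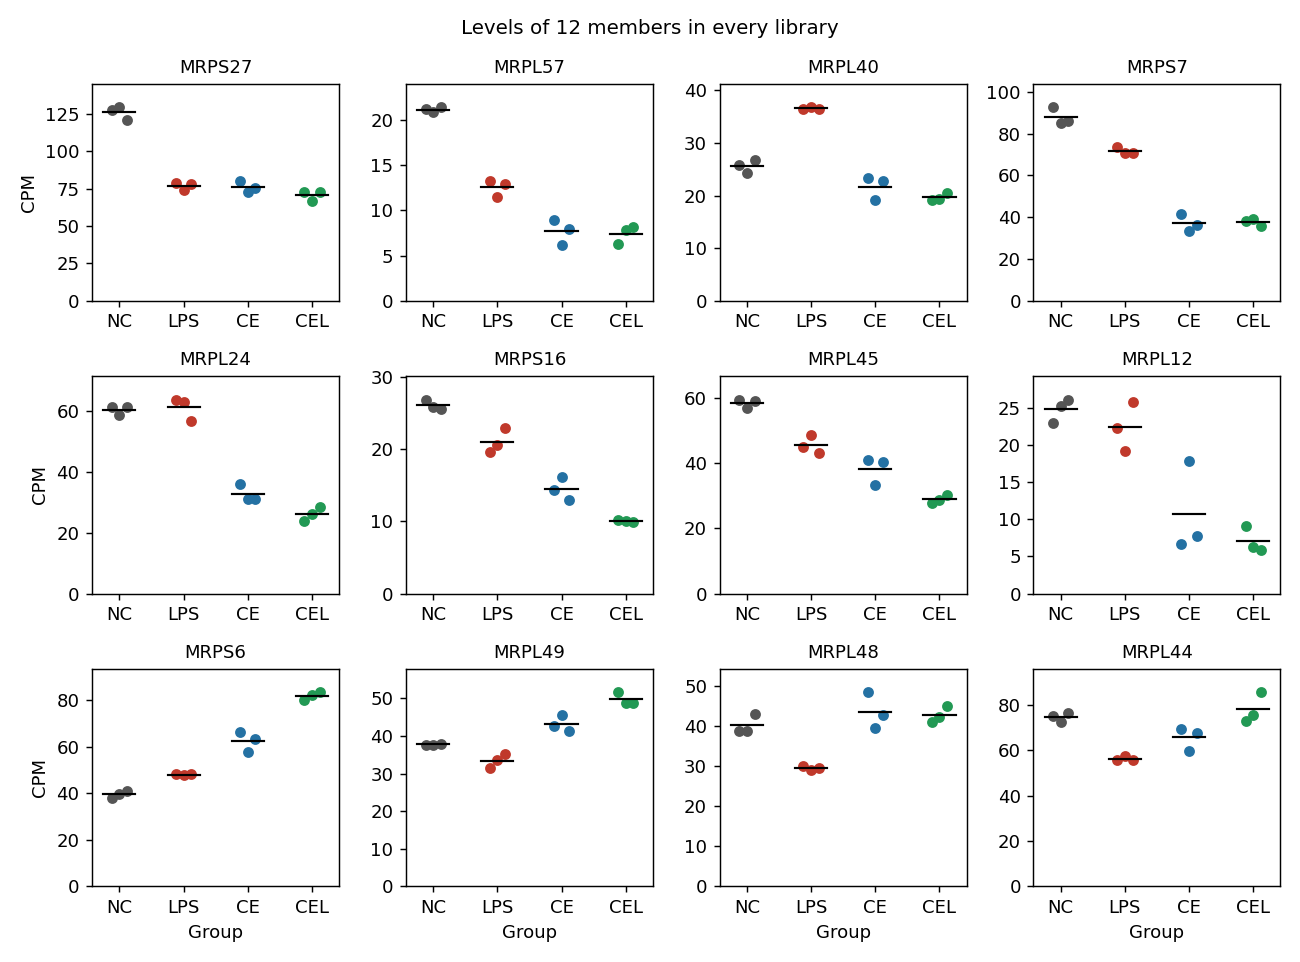
CPM (vertical axes, from 0) of 12 members in the 3 libraries of each group (points) with the group mean as a line. MRPS27 and MRPL57 drop between NC and LPS, MRPL40 rises in LPS and is lower in CE and CEL, MRPS6 climbs at each step, and MRPL12 has 1 CE library, CE 2 at 17.9 CPM, far above the other 2.

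Members with other known roles showed no common direction. MRPL58, the peptide hydrolase that frees stalled ribosomes, was at 36.9 ± 1.23, 32.6 ± 0.747, 37.1 ± 2.81 and 31.7 ± 1.97 CPM in NC, LPS, CE and CEL (SD, n = 3); it rose in CE against LPS by 0.19 ± 0.07 and fell in CEL against CE by 0.23 ± 0.07 (edgeR adjusted p = 0.0411 and 0.0318), and both calls were lost without CE 1 (0.306 and 0.37) and with the replicate block (0.07 and 0.0637). The 3 MRPS18 paralogues behaved differently. MRPS18C fell in CE against LPS by 0.47 ± 0.08 (edgeR adjusted p = 0.000561), from 75.4, 81.0 and 67.4 CPM to 59.3, 48.5 and 53.6 CPM, while MRPS18A and MRPS18B had changes of 0.02 ± 0.08 and 0.25 ± 0.10 (0.871 and 0.0583). MRPL18, related to a bacterial protein that binds ribosomal RNA, did not pass in LPS against NC, CE against LPS, CEL against LPS or CEL against CE. Its lowest edgeR adjusted p among these was 0.0569, for a change of 0.17 ± 0.07 in CEL against LPS. MRPL41 fell in LPS against NC by 0.42 ± 0.10 and in CE against LPS by 0.34 ± 0.10 (edgeR adjusted p = 0.00376 and 0.0121). Neither call passed with a GC correction, where the changes were -0.12 and 0.05 (0.781 and 0.923), or without a low-count filter (0.138 and 0.111). Of the most abundant members, MRPL33 and MRPL37 fell in LPS against NC by 0.48 ± 0.08 and 0.45 ± 0.04 (edgeR adjusted p = 0.000373 and 2.95e-06), and MRPL13 did not pass in the comparisons of neighbouring groups, with 0.03 ± 0.07, -0.09 ± 0.07 and 0.14 ± 0.07 in LPS against NC, CE against LPS and CEL against CE.

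The GC content of the transcripts moved with single libraries. Among the 13 members with 60% GC or more, the median log2 ratio of CE 2 to the other 2 CE libraries was 0.32, against -0.17 among the 64 others. MRPS34, with 64.7% GC, was at 2.95, 12.4 and 3.04 CPM in CE, and MRPL4, MRPL38, MRPL12 and MRPL28 were likewise highest in CE 2. MRPL41, the most GC-rich member at 71.9%, was not, with 13.8, 13.4 and 12.4 CPM. Across the 77 members, Pearson's r between GC content and a library's deviation was 0.53 for CE 2, 0.67 for LPS 3 and 0.50 for CEL 1, as a description across genes of 1 library each. In CE against LPS 7 of the 13 GC-rich members fell and the other 6 did not pass, and of the 64 others 29 fell and 9 rose. Without all of LPS 3, CE 2 and CEL 1, 91 calls of named members across the 6 comparisons passed and 2 did not. With the GC correction 62 of these calls passed, 29 did not and 2 turned direction.

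**Figure D4:**
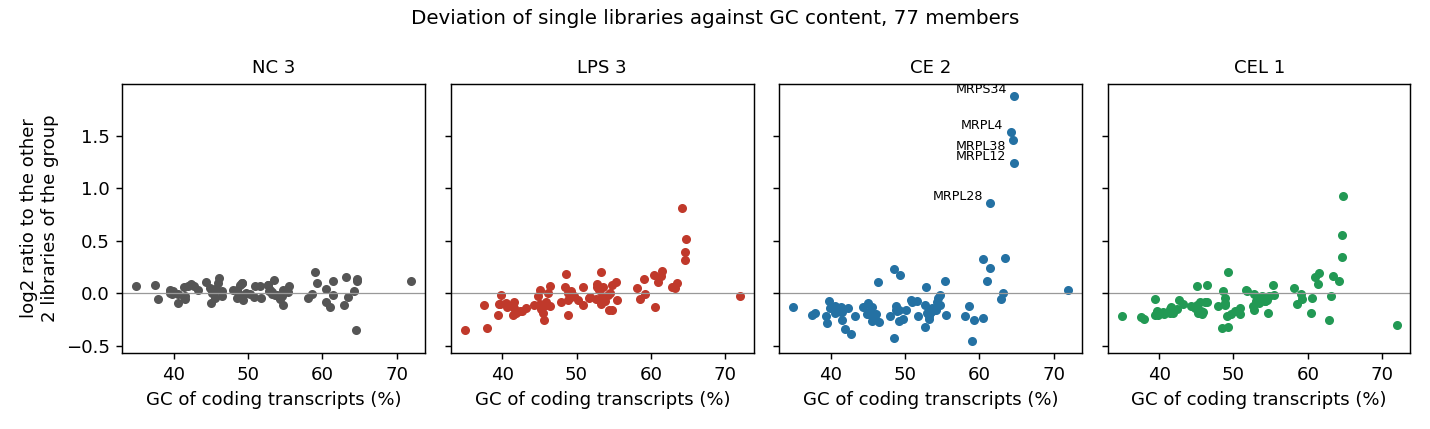
Deviation of 1 library from the other 2 of its group (log2 ratio, vertical axis) against the GC content of each member's coding transcripts (horizontal axis, percent) for NC 3, LPS 3, CE 2 and CEL 1, 77 points each. In CE 2 the 5 labelled members, all with 60% GC or more, lie above the rest, and NC 3 shows no such spread.

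Some members share their locus with other expressed genes, and whether the counting used strand is not given in the sources used here. An annotated gene of at least 2 CPM overlaps 24 of the 77 members, among them SLC5A3 for MRPS6, DNAJC9 for MRPS16, TWNK for MRPL43, PTCD2 for MRPS27, NCAPD2 for MRPL51 and HIRA for MRPL40, so these members' values are uncertain to that extent. The start of another coding gene lies on the opposite strand, up to 1000 bases upstream or overlapping by up to 200 bases, for 19 of the 77 members (24.7%). The share was 11.9% of the tested coding genes. Partners of members had to be in the count table, which was not asked for the tested coding genes. The nearby partners include TWNK, the mitochondrial DNA helicase, for MRPL43, and NDUFS6, a subunit of respiratory complex I, for MRPL36. MRPS11 and MRPL46 share 1 such start region, 34 bases apart. Of 81 pseudogenes of these genes in the table, 19 had a count, and MRPS31P5 was the one at 1 CPM or more, with 4.71 CPM.

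The rest of the mitochondrial translation machinery was counted from lists. Over all tested genes, 23.5% fell and 22.4% rose in LPS against NC, 20.7% and 28.8% in CE against LPS, and 27.2% and 28.7% in CEL against LPS. Of the 5 subunits of the same ribosome with other names, 1 fell in LPS against NC and 3 in CE against LPS. PTCD3, a small-subunit protein, fell by 0.26 ± 0.06 and 0.66 ± 0.06 in these comparisons (edgeR adjusted p = 0.00294 and 2.26e-06). Of 25 ribosome assembly genes 5 fell and 1 rose in LPS against NC, 12 fell and 4 rose in CE against LPS, and 11 fell and 3 rose in CEL against LPS. The shares that fell were 20%, 48% and 44%, the first of them near that of all genes. RBFA, which helps mature the small subunit, was at 27.6 ± 1.76 CPM in NC, 17.5 ± 0.429 in LPS, 8.80 ± 0.0762 in CE and 6.62 ± 0.764 in CEL (SD, n = 3). TFB1M, which methylates the small-subunit RNA, was at 22.3 ± 0.593, 16.2 ± 1.28, 7.31 ± 0.767 and 5.76 ± 0.533 CPM in the same order. Both genes passed in each of the 6 comparisons, and their falls in CE against LPS were -0.99 ± 0.09 and -1.14 ± 0.10 (edgeR adjusted p = 2.95e-06 and 3.43e-06). NGRN, on the same list, went the other way, at 42.6 ± 0.548, 51.7 ± 0.681, 55.4 ± 3.97 and 80.8 ± 0.945 CPM in NC, LPS, CE and CEL.

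Of 17 translation factors 5 fell and 1 rose in LPS against NC, 6 fell in CE against LPS, and 11 fell and 2 rose in CEL against LPS. The shares that fell were 29.4%, 35.3% and 64.7%, the first near that of all genes. GUF1, an elongation factor, was at 77.9 ± 0.424, 66.9 ± 4.24, 39.0 ± 1.33 and 33.8 ± 0.464 CPM in NC, LPS, CE and CEL. MTRF1L, on the same list, was higher in each treated group than in NC, at 41.3 ± 0.142, 52.1 ± 2.51, 50.8 ± 2.93 and 67.1 ± 4.60 CPM. Of 16 mitochondrial tRNA synthetases 5, 4 and 6 fell in those 3 comparisons, and 2 rose in CE against LPS and 3 in CEL against LPS. The shares that fell, 31.2%, 25% and 37.5%, were near those of all genes, so the falls alone are no result about this list. The shares that rose, 0%, 12.5% and 18.8%, were below those of all genes. The list's median was -0.16, -0.10 and -0.46, against -0.01, 0.08 and -0.03 over all tested genes, and this difference was not tested. Of 6 genes of mitochondrial transcription, 0 were called in LPS against NC by edgeR (1 had an unadjusted p under 0.05) and 0 by DESeq2 (also 0 unadjusted), 4 fell in CE against LPS, and in CEL against LPS 4 fell and TFAM rose. Of the 13 proteins encoded in the mitochondrial genome, which this ribosome makes, 8 fell in LPS against NC, and 2 fell and 5 rose in CE against LPS. In CEL against LPS 4 fell and 3 rose. In CEL against CE 6 fell and 1 rose (46.2% and 7.69%, against 14.8% and 8.78% of all tested genes). Their summed mean level was 63326, 49681, 60149 and 47682 CPM in NC, LPS, CE and CEL. MT-CO3 fell by 0.83 ± 0.10 in LPS against NC (edgeR adjusted p = 2.66e-05), and MT-ND6 and MT-ND5 rose by 0.83 ± 0.11 and 0.56 ± 0.07 in CE against LPS (4.93e-05 and 6.87e-05). The 2 mitochondrial ribosomal RNAs passed in none of the 6 comparisons by edgeR or DESeq2, and 0 had an unadjusted p under 0.05 with either. With limma on log2(TPM + 1) 1 of the 2 passed in CE against LPS and 1 in CE against NC.

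The ribosome of the cytosol gave different values. Of its 79 protein genes 78 fell and 1 rose in LPS against NC, with a median of -0.59, against 28 and 5 of 77 and -0.12 for the mitochondrial ones. In CE against LPS 4 of the cytosolic genes fell and 30 rose, with a median of 0.16, against 36 and 9 and -0.24. In CEL against LPS 10 fell and 14 rose, with a median of 0.02, against 40 and 13 and -0.24. The difference between the 2 families was not tested.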

How the data were processed

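Libraries were made from fragmented mRNA selected with oligo-dT beads, per the labels' protocols. The build was hg38, per the submitters' processing notes; which aligner, counter, strand setting and annotation served is not given in the sources used here. Values deposited by the authors are estimated counts (29.3% of nonzero values were not whole within 0.005, from the values) and TPM (column sums 999999 to 1000001, from the values). The FPKM table was not used. All columns were mapped, with 0 left over.

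Estimated counts were rounded. Genes were kept with filterByExpr (14065 tested), scaled with TMM and fitted in edgeR 4.0.16 (R 4.3.3) with glmQLFit over 4 groups (8 residual degrees of freedom, common coefficient of variation 20.1%). Calls used a two-sided quasi-likelihood F test at a Benjamini-Hochberg adjusted p under 0.05 over all tested genes. Fold changes are log2 ± SE, and CPM are TMM-scaled. Alternatives were other scaling factors, no filter, DESeq2 1.42.0, a replicate block, limma 3.58.1 on log2(TPM + 1) and log2(TPM + 0.1), each library left out, and, added after seeing the data, 2 sets of libraries left out and a GC correction. Code was tested on simulated data. Coordinates, GC and overlaps came from GENCODE gene models on GRCh38.

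The labels give the replicate number as a batch, so the numbers pair the libraries. Deviations of same-numbered libraries over 7460 genes correlated between -0.86 and 0.73 (median -0.19), above 0.1 in 6 of 18 pairs.

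Named members were, in each comparison, up to 6 with the largest rise and 6 with the largest fall among those called without overlap between groups, plus the 4 highest and 4 lowest by TPM, members with a textbook role, and up to 4 genes of each other list. The members and lists were chosen with earlier results of these data known.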

Additional observations from a re-analysis of the deposited data

How the results depend on the processing

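The members' median stayed below that of all tested genes in each of 19 alternatives in CE against LPS, CEL against LPS, CE against NC and CEL against NC (differences of -0.42 to -0.12, -0.34 to -0.12, -0.49 to -0.15 and -0.47 to -0.16), and in 18 of 19 in LPS against NC (-0.13 to 0.01). In CEL against CE it was below in 4 of 18. Other scaling factors shift all genes nearly alike, so those settings could hardly change the difference and add no separate evidence. In CE against NC the difference was -0.45 in the main fit and with RLE factors, upper quartile factors or library size alone. Without a low-count filter and with DESeq2 the median of all genes was taken over 38635 genes, against 14065 in the main fit. Fitting the replicate number as a block gave 5 higher and 26 lower in LPS against NC, 7 and 35 in CE against LPS, and 12 and 38 in CEL against LPS. It gave 5 and 7 in CEL against CE, 8 and 46 in CE against NC, and 11 and 47 in CEL against NC. Among named members the block ended the calls given in the text (MRPS34, MRPL49 and both of MRPL58) and no other. In what follows, counts are members higher, then lower, and medians are those of the members. The shares of all tested genes called moved with the setting too, so these counts alone describe no change particular to the members.

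On TPM the cause of the differences was not tested. With limma on log2(TPM + 1) the counts were 2 and 1 (median turned to 0.0051) in LPS against NC, 2 and 13 in CE against LPS, 8 and 18 (median -0.11) in CEL against LPS, 0 and 0 in CEL against CE, 19 lower (-0.15) in CE against NC and 23 lower (-0.15) in CEL against NC. On log2(TPM + 0.1) they were 2 and 1 (0.0032), 2 and 13, 8 and 17 (-0.11), 0 and 0, 19 lower (-0.15) and 23 lower (-0.15). Without the TPM filter they were 1 and 0 (0.0051), 1 and 6, 3 and 11 (-0.11), 0 and 0, 4 and 13 (-0.15) and 16 lower (-0.15). Upper quartile factors moved the median of all tested genes to -0.12, -0.10, -0.17, -0.20 and -0.24 in LPS against NC, CE against LPS, CEL against LPS, CE against NC and CEL against NC, and gave 2 higher (members' median -0.23), 4 (-0.41), 7 (-0.38), 2 (-0.65) and 5 (-0.67). Library size alone gave 4 higher and a median of -0.40 in CE against LPS, and medians of -0.35, -0.52 and -0.54 in CEL against LPS, CE against NC and CEL against NC. RLE factors gave 5 higher in CE against LPS, 4 and 4 in CEL against CE, and a median of -0.40 in CE against NC. DESeq2 gave 5 lower in CEL against CE. Without a low-count filter there were 3 and 13 (-0.057) in LPS against NC, 4 higher (-0.34) in CEL against LPS, and 0 and 5 in CEL against CE. Fitting only the 2 groups gave 12 higher in LPS against NC and 2 and 1 in CEL against CE. A GC correction moved the median of all genes with a GC value to -0.20, -0.09 and -0.10 in LPS against NC, CE against NC and CEL against NC. It gave 0 higher (-0.31) in LPS against NC, 5 lower in CEL against CE, 1 higher (-0.55) in CE against NC and 2 higher (-0.55) in CEL against NC. It also turned MRPL13 to -0.18 and MRPL14 to -0.057 in LPS against NC, both above that median of -0.20, and MRPL41 to 0.046 in CE against LPS. Without both NC 3 and LPS 1 there were 1 and 17 in LPS against NC, 4 higher in CE against LPS and 3 higher (-0.46) in CE against NC. Without all of LPS 3, CE 2 and CEL 1 there were 9 higher in LPS against NC. With 1 library left out, members higher ranged from 3 to 7 in LPS against NC (3 without NC 3), 5 to 13 in CE against LPS and 4 to 15 in CEL against CE, members lower from 1 to 14 in CEL against CE, and medians from -0.35 to -0.16 in CE against LPS, -0.046 to 0.13 in CEL against CE and -0.44 to -0.34 in CE against NC. With 3 libraries a group, precision for members of a few CPM, such as MRPL4 and MRPS34, was low.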
